A study of Mus musculus with 6 samples.

Results

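The genes described here are the protein-coding acyl-CoA synthetases (Acsl, Acsm, Acss and Acsf), the acyl-CoA thioesterases (Acot) and the acyl-CoA binding domain proteins (Acbd) of mouse liver. They were chosen by name, as all protein-coding genes whose GENCODE M21 symbol starts with one of these 6 stems followed by a digit, which gave 33 of the 54532 Ensembl genes in the count table. Of these, 13 were Acot, 5 Acsl, 5 Acsm, 3 Acss, 2 Acsf and 5 Acbd genes. RNA-seq was performed on liver of 3 HFD mice and 3 HFD+Allantoin-H mice, with 1 library per mouse. All were wild-type C57BL/6J males, 8 weeks old at entry, fed a high-fat diet (HFD) over 2 periods of 4 weeks each. In the second of these the HFD+Allantoin-H mice also received allantoin, an oxidation product of uric acid, at 0.3 mg/mL in the drinking water. The age, the strain and the dose were taken from the study's methods, since the label of a library names the treatment without its dose. No library of chow-fed mice or of the lower dose was analysed here, and no batch or collection time is given, so that an effect of either cannot be told apart from that of the group.

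A fatty acid has to be joined to coenzyme A (CoA) before it can be oxidised, elongated or built into triglyceride and phospholipid. Synthetases form this acyl-CoA and differ in the chain length they accept. Thioesterases split it again into free fatty acid and CoA, and each acts in a certain compartment, such as the cytosol, the mitochondrial matrix or the peroxisome. Proteins with an acyl-CoA binding domain hold the activated chain or tether organelles that exchange lipids. In liver several of these genes are known targets of PPARα, the nuclear receptor that responds to fatty acids. The study reported that allantoin binds PPARα and lowers its activity in a liver cell line and in primary hepatocytes. In a reporter assay allantoin also inhibited activation by a PPARα agonist, and the study proposes it as a potential endogenous PPARα antagonist. PPARα activity itself was not tested here.

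The libraries held 11326372 to 14601457 counts, of which the 33 members took 0.186% to 0.261% in HFD and 0.346% to 0.426% in HFD+Allantoin-H. Levels are given as CPM, counts brought to the same library total with edgeR's TMM factors. A fold change above 0 on the log2 scale means a higher level in HFD+Allantoin-H. Genes of the mitochondrial chromosome took 17.9% to 36.5% of the counts in HFD and 6.92% to 11.4% in HFD+Allantoin-H, and with these genes left out the counts of called members were as with them. The hepatocyte markers Alb, Ttr, Apoa1, Apob, Cps1 and Hnf4a were all detected and summed to 85280 to 87230 CPM in HFD and 71570 to 101000 CPM in HFD+Allantoin-H. Among them Apob and Cps1 were called higher, and Ttr and Apoa1 lower. HFD replicate 2 held adipocyte transcripts, with Adipoq at 51.4 CPM against 0 in the other HFD libraries, and its 6 adipocyte markers summed to 257 CPM against 35.7 to 82.2 CPM in the 5 other libraries. Without this library 8 members were still called higher and 2 lower. The 6 macrophage markers summed to 89.0 to 207 CPM in HFD and 227 to 265 CPM in HFD+Allantoin-H, with 2 of 6 called higher, against 11.3% of all tested genes. The 5 stellate cell markers summed to 114 to 162 CPM and 267 to 306 CPM, with 4 of 5 called higher. Their part in the results below was not tested, and in whole liver a different number of cells of a type and a different amount of RNA per cell cannot be told apart.

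After the filter on low counts, 26 of the 33 members were among the 12795 genes tested. At an adjusted p under 0.05 over all of these genes (edgeR's quasi-likelihood test), 8 members rose in HFD+Allantoin-H, namely Acot1, Acot3, Acot4, Acot11, Acot12, Acsm3, Acss2 and Acss3. Acot13 and Acbd6 fell, and the other 16 tested members did not pass. Acot1, Acot3, Acot4, Acsm3 and Acss3 were called under all 16 alternative settings. The count of 8 was 6, 5 and 6 without HFD+Allantoin-H replicate 4, 5 or 6, none of which left a member called lower, and 11 without HFD replicate 3. Over all tested genes 11.3% were called higher, 13.0% lower and 24.3% in either direction. The median log2 fold change of the 26 members was 0.41, against -0.03 for all tested genes, and 20 were above 0 and 6 below. The 3 HFD and 3 HFD+Allantoin-H values were apart in 14 members that were higher and 3 that were lower, where 22.4% and 21.9% of all tested genes, 44.3% together, were separated in this way. With library size in place of TMM, 16 members were called higher and none lower, and the median of all tested genes moved from -0.03 to 0.38. The plot of fold changes shows each tested member with its standard error and its range over the other settings.

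**Figure D1:**
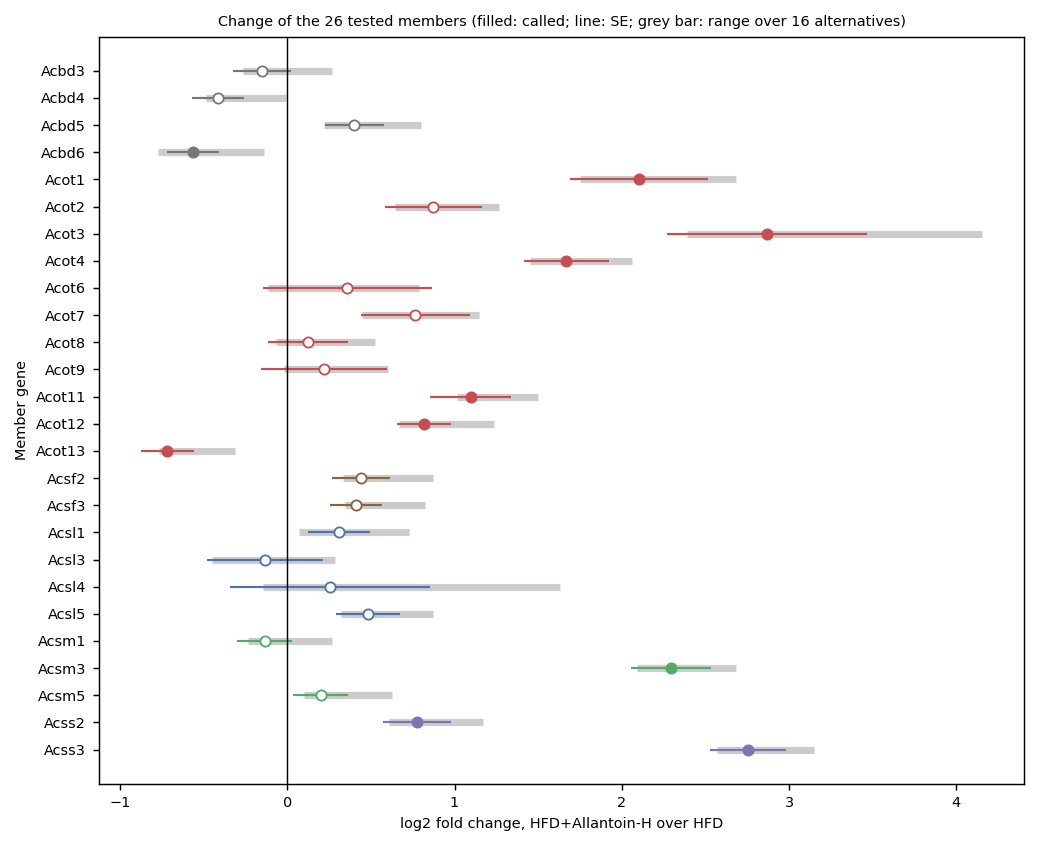
Log2 fold change (HFD+Allantoin-H over HFD, x axis) of the 26 tested members (y axis), coloured by family. Filled points are genes called at an adjusted p under 0.05, thin lines are 1 standard error and grey bars span the 16 alternative settings. Acot3, Acss3, Acsm3, Acot1 and Acot4 lie farthest to the right, and Acot13 and Acbd6 are the filled points left of 0.

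A run of 6 thioesterase genes, Acot2, Acot1, Acot4, Acot3, Acot5 and Acot6, lies side by side on the plus strand of chromosome 12 (GRCm38), from base 83987861 to 84111349. They are close relatives that differ in compartment. Acot1 is cytosolic, Acot2 mitochondrial and the other members of the run are peroxisomal. Of the 5 that were tested, all had a fold change above 0, with a median log2 fold change of 1.67, and 3 of them rose, where 11.3% of all tested genes did.

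Acot1 (ENSMUSG00000072949), which hydrolyses long-chain acyl-CoA in the cytosol, was at 8.08, 16.7 and 30.4 CPM in HFD replicates 1 to 3 and at 101, 70.6 and 66.4 CPM in HFD+Allantoin-H replicates 4 to 6. Every HFD+Allantoin-H library was above every HFD library, with group means of 18.4 ± 11.3 and 79.5 ± 19.1 CPM (SD, n = 3 each). The log2 fold change was 2.10 (standard error, SE, 0.41, edgeR adjusted p = 0.00895), which ranged, with 1 library left out, from 1.75 without HFD replicate 1 to 2.68 without HFD replicate 3. Acot3 (ENSMUSG00000021228), a peroxisomal enzyme for long-chain acyl-CoA, was at 3.17, 0.988 and 10.5 CPM in HFD and at 35.6, 39.0 and 34.9 CPM in HFD+Allantoin-H. The HFD libraries differed among themselves far more than those of HFD+Allantoin-H, and the groups did not overlap. Its log2 fold change was 2.87 (SE 0.60, edgeR adjusted p = 0.0110), and 4.16 without HFD replicate 3, the highest of the HFD libraries. Acot4 (ENSMUSG00000052392), a peroxisomal enzyme that acts on succinyl-CoA and other dicarboxylic acyl-CoA, was at 28.6, 24.4 and 47.0 CPM in HFD and at 101, 121 and 95.5 CPM in HFD+Allantoin-H. It rose with a log2 fold change of 1.67 (SE 0.25, edgeR adjusted p = 0.00423), again with HFD replicate 3 as the highest HFD library.

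Acot2 (ENSMUSG00000021226), the mitochondrial member, was at 8.95, 6.91 and 13.6 CPM in HFD and at 15.2, 15.6 and 23.5 CPM in HFD+Allantoin-H. The groups did not overlap, but the log2 fold change of 0.87 (SE 0.29) had an adjusted p of 0.0556 with edgeR and did not pass. It passed in 6 of the 16 alternatives, among them DESeq2 (adjusted p = 0.0271) and the fit without HFD replicate 3 (0.0124). Acot6, which acts on branched chains, stayed between 0.920 and 2.83 CPM in all 6 libraries, with overlapping groups. Acot5, a peroxisomal enzyme for medium chains, had 0 counts in every library, which allows up to 3 counts or 0.177 to 0.328 CPM per library, a limit that covers counting error only.

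**Figure D2:**
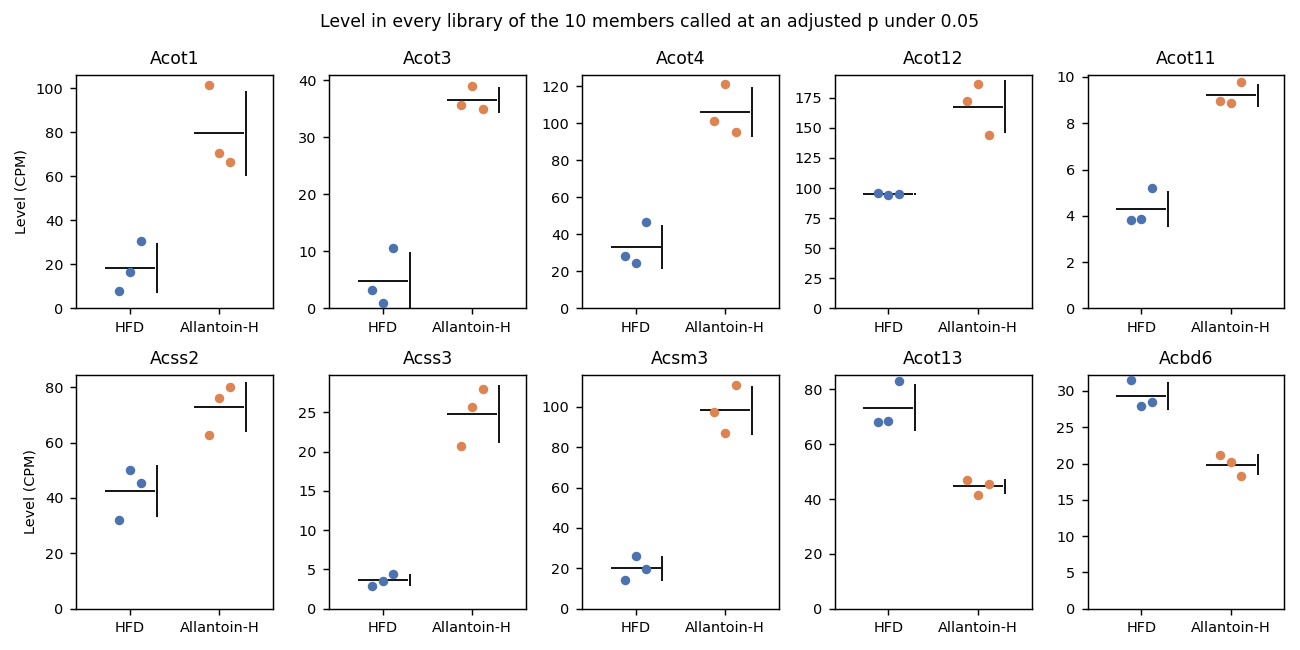
Level in CPM (y axis, linear and starting at 0) of the 10 called members in each HFD and HFD+Allantoin-H library (x axis). Points are single mice, horizontal lines the group mean and vertical lines 1 SD, cut at 0 for Acot3. In none of the 10 genes do the groups overlap.

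The coding sequences of neighbouring Acot genes are so alike that a read can match several of them, and how the authors' counting treated such reads is not given in the sources used here. In a MAFFT alignment the coding sequences of Acot1 and Acot2 shared 1178 of 1236 aligned bases, or 95.3%, with 273 identical bases in a row at most. Of all 100-base windows in the Acot1 transcript, 21.9% occur unchanged in a transcript of another gene, and of those in Acot2 17.1%. The 60 aligned coding bases with the most differences are shown here, because reads over this stretch tell Acot1 (coding bases 823 to 882) from Acot2 (946 to 1005). Capitals mark the 13 bases that differ.
Acot1: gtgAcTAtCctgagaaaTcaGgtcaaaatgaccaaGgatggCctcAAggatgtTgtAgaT
Acot2: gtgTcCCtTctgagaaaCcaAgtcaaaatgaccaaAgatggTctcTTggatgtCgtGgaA
The coding sequence of Acot2 also begins 123 bases ahead of the first base that aligned with Acot1. This stretch is printed since it has no partner in the coding sequence of Acot1, the only part of Acot1 in the MAFFT alignment.
Acot2 start: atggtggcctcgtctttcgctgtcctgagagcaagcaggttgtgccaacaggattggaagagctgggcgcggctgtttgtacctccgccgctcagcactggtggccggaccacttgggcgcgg

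Acot3 and Acot5 were less alike, at 85.4% of 1263 aligned coding bases, but shared 195 identical bases in a row, and 16.6% of the 100-base windows of Acot3 occur in another gene. The 60 coding bases in which they differ most separate the gene that rose from the gene without a count, with the 26 differing bases in capitals (coding bases 814 to 873 of Acot3 and 781 to 840 of Acot5).
Acot3: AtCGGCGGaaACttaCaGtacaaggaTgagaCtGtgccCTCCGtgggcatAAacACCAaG
Acot5: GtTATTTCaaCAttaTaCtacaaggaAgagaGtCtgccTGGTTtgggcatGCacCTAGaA
Acot4 and Acot6 shared 74.3% of 1254 aligned coding bases and at most 96 in a row. Parts of these transcripts were more alike. A BLAST match of Acot4 and Acot6 was 97.1% identical over 543 bases, and that of Acot3 and Acot5 was 95.5% identical over 605 bases. Of the 100-base windows of Acot4, 8.85% occur in another gene. Exons of Acot3 and Acot4 are also overlapped on the opposite strand by 4732463B04Rik, which had 0 to 26 counts per library, and on the same strand by Gm49366, which had 0 counts in all 6. How reads in these overlaps were counted is not given either, which leaves the levels of Acot3 and Acot4 uncertain.

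Outside this run, Acot12 and Acot11 rose and Acot13 fell. Acot12 (ENSMUSG00000021620, chromosome 13, 91741512 to 91786148), the cytosolic enzyme that hydrolyses acetyl-CoA, was at 96.0, 94.4 and 94.8 CPM in HFD and at 172, 187 and 144 CPM in HFD+Allantoin-H. The HFD libraries averaged 95.1 ± 0.804 CPM (SD, n = 3), and the log2 fold change of 0.82 (SE 0.16) had an adjusted p of 0.00909 with edgeR. Without HFD+Allantoin-H replicate 5, the highest library, it was 0.74 and the adjusted p 0.0555. Acot11 (ENSMUSG00000034853), a long-chain thioesterase known from brown fat, was low, at 3.82, 3.85 and 5.18 CPM in HFD and 8.94, 8.87 and 9.79 CPM in HFD+Allantoin-H. It rose by a log2 fold change of 1.10 (SE 0.24, edgeR adjusted p = 0.0141). It no longer passed without any one of HFD+Allantoin-H replicates 4, 5 and 6 (adjusted p = 0.0556, 0.0602 and 0.0591). Fam151a overlaps 1263 exon bases of Acot11 on the opposite strand and had 0 counts. Since the counting of reads in this overlap is not given, the level of Acot11 is uncertain.

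Acot13 (ENSMUSG00000006717, chromosome 13, 24817948 to 24831540), a small mitochondria-associated thioesterase for long chains, was the thioesterase that fell. It was at 68.2, 68.5 and 83.2 CPM in HFD and at 46.9, 41.6 and 45.4 CPM in HFD+Allantoin-H, without overlap, and fell by 0.72 on the log2 scale (SE 0.16, edgeR adjusted p = 0.0136). Its exons span only 744 bases, and once trends with transcript length and GC were taken out of every library its log2 fold change was -0.34 (adjusted p = 0.137). The call was also lost with library size in place of TMM (log2 fold change -0.31) and without HFD+Allantoin-H replicate 4, 5 or 6 (adjusted p = 0.0587, 0.0806 and 0.0546).

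Acot7, a cytosolic long-chain thioesterase best known from brain, was at 4.15, 11.3 and 9.78 CPM in HFD and 14.1, 15.4 and 13.5 CPM in HFD+Allantoin-H, without overlap and without passing the test (log2 fold change 0.77, adjusted p = 0.114). Acot8, a peroxisomal enzyme of broad chain length, ran from 9.61 to 17.8 CPM in HFD and 13.7 to 16.6 CPM in HFD+Allantoin-H, so that the groups overlapped. Snx21 overlaps 246 exon bases of Acot8 on the opposite strand and had 94 to 183 counts per library against 88 to 232 for Acot8. With the use of strand in the counting not given, the values of Acot8 are uncertain. Acot9, a mitochondrial enzyme, ran from 2.07 to 4.64 CPM and from 3.14 to 4.93 CPM. Acot10, a relative of Acot9 in a single exon on chromosome 15, had 0 counts in every library. The coding sequences of Acot9 and Acot10 shared 1280 of 1317 bases, or 97.2%, and 20.2% of the 50-base windows but 0.968% of the 100-base windows of the Acot9 transcript occur in Acot10 or another gene. Coding bases 113 to 172 of both, with their 6 differing bases in capitals, show how few bases decide between them.
Acot9: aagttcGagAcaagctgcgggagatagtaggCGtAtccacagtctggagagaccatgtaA
Acot10: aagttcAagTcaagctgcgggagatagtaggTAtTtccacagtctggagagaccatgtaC

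Genes can be compared with one another only per length, and levels were therefore also divided by the length of all exons of a gene in kb. Without this division the thioesterases summed to 266 ± 40.7 CPM in HFD and 496 ± 36.4 CPM in HFD+Allantoin-H (SD, n = 3 each), and the groups did not overlap. Per length the sum was 156 ± 19.7 CPM per kb (SD, n = 3) in HFD and 184 ± 8.86 CPM per kb (SD, n = 3) in HFD+Allantoin-H, and the libraries of the groups overlapped. The genes that made up the sum per kb held different shares of it in the groups. Acot13 held 65.1%, 61.7% and 62.7% of it in the HFD libraries and 32.9%, 30.3% and 35.0% in the HFD+Allantoin-H libraries. Acot1 to Acot6 together went from 15.8 ± 7.28 to 55.3 ± 3.0 CPM per kb (SD, n = 3 each), with HFD replicate 3 at 24.2 and the other HFD libraries at 11.7 and 11.6 CPM per kb. Acot12 held 18.7% ± 2.32 of the sum in HFD and 27.7% ± 2.87 in HFD+Allantoin-H (SD, n = 3 each). These shares do not depend on the scaling between libraries, but they do depend on the exon length taken for each gene. Trends with transcript length and GC were not taken out of them. With those trends removed, the log2 fold change of Acot13 was -0.34.

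**Figure D3:**
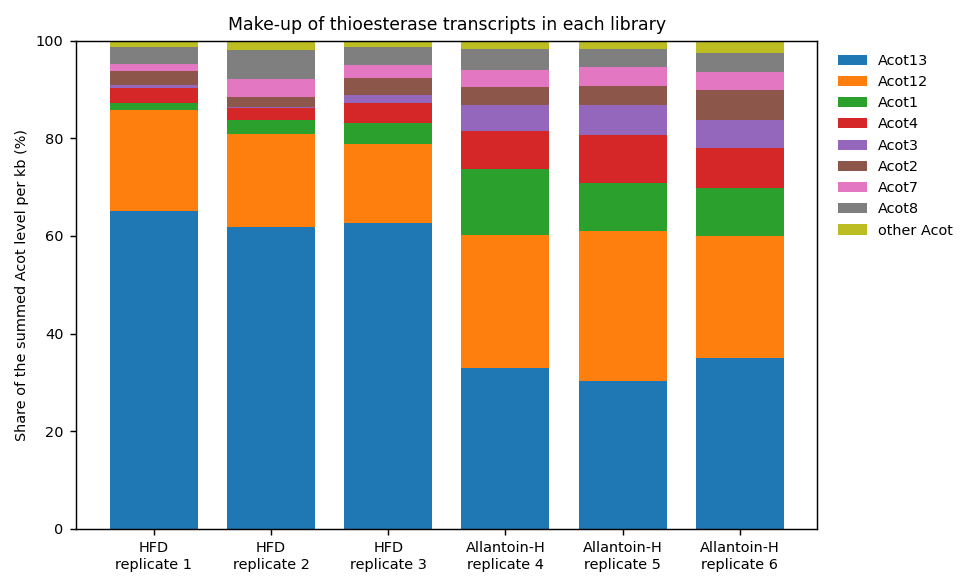
Share of each thioesterase gene in the summed Acot level per kb of exon (y axis, percent) in the 6 libraries (x axis). Acot13, the lowest block, takes 61.7% to 65.1% in HFD and 30.3% to 35.0% in HFD+Allantoin-H, while the blocks of Acot1, Acot3 and Acot4 are taller in every HFD+Allantoin-H library. Trends with transcript length and GC were not removed.

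Among the synthetases, 3 of the 11 tested members rose and none fell at an adjusted p under 0.05 (edgeR), where 11.3% of all tested genes rose and 13.0% fell. The groups were separated in 6 of the 11, all of them higher, against 22.4% of all tested genes. The 3 that rose activate short or medium chains. Acss3 (ENSMUSG00000035948, chromosome 10, 106933517 to 107123668), a mitochondrial enzyme that activates propionate, was at 2.95, 3.56 and 4.43 CPM in HFD and at 20.7, 25.6 and 28 CPM in HFD+Allantoin-H. This was the smallest adjusted p among the members, with a log2 fold change of 2.75 (SE 0.23, edgeR adjusted p = 0.00106). Exons of Ppfia2 on the opposite strand overlap 2436 bases of Acss3, and 50.8% of its 100-base windows lie in transcripts of that gene, which had 0 to 8 counts per library. How reads in this overlap were counted is not given, so that the level of Acss3 is uncertain.

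Acss2 (ENSMUSG00000027605, chromosome 2, 155517948 to 155585724), which forms acetyl-CoA from acetate in the cytosol and nucleus, was at 32, 50.3 and 45.2 CPM in HFD and at 62.7, 76.0 and 80.0 CPM in HFD+Allantoin-H. The groups did not overlap, with a log2 fold change of 0.78 (SE 0.20, edgeR adjusted p = 0.0249). Leaving out HFD+Allantoin-H replicate 4, 5 or 6 ended the call (adjusted p = 0.0530, 0.0945 and 0.0918). Gss overlaps 395 exon bases of Acss2 on the opposite strand and had 640 to 1327 counts per library against 293 to 1285 for Acss2, so that, with the use of strand in the counting not given, the values of Acss2 are uncertain. Acss1, its mitochondrial counterpart, had 1 to 9 counts per library and was left out by the filter on low counts. Acsf3, a mitochondrial enzyme that activates malonate, was at 24.1, 29.8 and 26 CPM in HFD and 34.3, 36.5 and 35.6 CPM in HFD+Allantoin-H. Its groups did not overlap, but it did not pass (log2 fold change 0.41, adjusted p = 0.0806).

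The medium-chain synthetases of the Acsm family lie together on chromosome 7 and act in the mitochondrial matrix. Acsm3 (ENSMUSG00000030935, chromosome 7, 119760923 to 119787513) was at 14.1, 26.3 and 19.8 CPM in HFD and at 97.3, 86.8 and 111 CPM in HFD+Allantoin-H. All treated libraries were far above the others, at a log2 fold change of 2.29 (SE 0.24, edgeR adjusted p = 0.00191). Eri2 overlaps 1962 exon bases of Acsm3 on the opposite strand, but its own counts were 39 to 72 in HFD and 73 to 94 in HFD+Allantoin-H against 129 to 266 and 1327 to 1644 for Acsm3. With the counting of reads in this overlap not given, the level of Acsm3 is uncertain. The neighbours of Acsm3 did not share its rise. Acsm1, which had the highest level per length of all members in HFD, was at 260, 346 and 301 CPM in HFD and 271, 286 and 269 CPM in HFD+Allantoin-H, with overlapping groups (log2 fold change -0.14, adjusted p = 0.581, and 0.27 with library size in place of TMM). Acsm5 was at 112, 84.1 and 99.2 CPM and at 108, 116 and 115 CPM (log2 fold change 0.20, adjusted p = 0.398). Acsm2 had at most 8 counts and Acsm4 at most 2 counts in a library, and neither was tested. Acsf2, another mitochondrial medium-chain synthetase, was at 186, 147 and 158 CPM in HFD and 216, 255 and 196 CPM in HFD+Allantoin-H, without overlap (log2 fold change 0.44, adjusted p = 0.0965). A processed pseudogene on chromosome 3, Gm5540, is 99.0% identical to Acsf2 over 1848 bases and had 2 to 14 counts.

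None of the 4 tested long-chain synthetases passed at an adjusted p under 0.05 (edgeR). Acsl1, the main long-chain synthetase of liver, on the ER and the outer mitochondrial membrane, was the member with the most counts, at 1159, 1185 and 1146 CPM in HFD and 1529, 1639 and 1155 CPM in HFD+Allantoin-H. HFD+Allantoin-H replicate 6 lay among the HFD libraries, and the log2 fold change was 0.31 (SE 0.19, edgeR adjusted p = 0.250). Acsl5, found on the same membranes, was at 110, 161 and 157 CPM in HFD and 192, 184 and 223 CPM in HFD+Allantoin-H, without overlap (log2 fold change 0.48, adjusted p = 0.0975). Zdhhc6 overlaps 404 exon bases of Acsl5 on the opposite strand and had 549 to 1154 counts per library against 1008 to 3301 for Acsl5. The use of strand in the counting is not given, which leaves the values of Acsl5 uncertain. Acsl4, which prefers arachidonic acid, was at 12.9 and 14.3 CPM in HFD replicates 1 and 2 but at 77.9 CPM in HFD replicate 3, above the 35.1, 48.4 and 42.5 CPM of HFD+Allantoin-H. With all libraries its log2 fold change was 0.26 (adjusted p = 0.788), and without HFD replicate 3 it was 1.63 (adjusted p = 0.00181, edgeR), so that 1 library decided this call. Acsl3, an enzyme of the ER and of lipid droplets, ran from 5.73 to 15.5 CPM in HFD and from 7.76 to 12.1 CPM in HFD+Allantoin-H. Acsl6 had at most 2 counts in a library and was not tested.

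Of the binding proteins, Acbd6, a cytosolic protein, fell and 3 others did not pass. Acbd6 (ENSMUSG00000033701, chromosome 1, 155558120 to 155691330) was at 31.6, 27.9 and 28.5 CPM in HFD and at 21.2, 20.2 and 18.2 CPM in HFD+Allantoin-H, and fell by 0.56 on the log2 scale (SE 0.15, edgeR adjusted p = 0.0297). The call held in 10 of 16 alternatives and was lost with DESeq2 (adjusted p = 0.0555), with library size in place of TMM (0.590), without the filter on low counts (0.0872) and without HFD+Allantoin-H replicate 4, 5 or 6 (0.0888, 0.109 and 0.119). The peroxisomal proteins, which bridge peroxisomes and the ER, went opposite ways without passing. Acbd5 was at 206, 208 and 286 CPM in HFD and 296, 313 and 315 CPM in HFD+Allantoin-H (log2 fold change 0.40, adjusted p = 0.130). Acbd4 was at 49.6, 59.8 and 56.3 CPM in HFD and 45.5, 39.6 and 39.2 CPM in HFD+Allantoin-H (log2 fold change -0.41, adjusted p = 0.0825). Acbd3, a Golgi protein, had overlapping groups between 14.7 and 20.1 CPM, and Acbd7 had 0 counts in all 6 libraries.

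The counts by class in this paragraph stand beside shares over all tested genes of 11.3% called higher, 13.0% called lower and 22.4% separated with HFD+Allantoin-H higher. Sorted by the chain length their enzymes are known to prefer, all 5 tested short-chain genes (Acot4, Acot12, Acss2, Acss3 and Acsf3) had groups that did not overlap, with HFD+Allantoin-H higher. Of these 5, 4 rose, and their median log2 fold change was 0.82. Of 10 tested long-chain genes 3 rose and 1 fell (median 0.62), and of 4 tested medium-chain genes 1 rose (median 0.32). For the long-chain genes the values differed by role. The 6 thioesterases had a median of 0.98 with 3 called higher and 1 lower, and the 4 synthetases a median of 0.28 with none called. Sorted by compartment, 4 of the 6 tested cytosolic genes rose and 1 fell, 2 of the 6 peroxisomal genes rose, and of the 9 mitochondrial genes 2 rose and 1 fell. The medians of these were 0.80, 0.38 and 0.41. The summed thioesterase level of the peroxisome went from 13.4 ± 3.26 to 34.2 ± 2.41 CPM per kb, that of the cytosol from 38.2 ± 4.15 to 79.4 ± 9.55 CPM per kb, and that of the mitochondria from 104 ± 13.0 to 69.9 ± 4.98 CPM per kb (SD, n = 3 each). Of the last sum Acot13 made up most, and its dependence on transcript length and GC content applies to the sum as well. These classes are small, several enzymes act in more than a single compartment, and the differences between classes were not tested.

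The order of levels per length shifted with these changes. In HFD, Acsm1 (139 ± 19.8 CPM per kb), Acsl1 (111 ± 1.91) and Acot13 (98.5 ± 11.5) stood above Acsf2 (47.7 ± 5.92) (SD, n = 3 each), and Acsl1 and Acot13 overlapped within 1 SD. In HFD+Allantoin-H the order was Acsl1 (137 ± 24.2), Acsm1 (126 ± 4.27), Acsf2 (64.8 ± 8.89) and Acot13 (60.004 ± 3.70), in which Acsl1 and Acsm1, and Acsf2 and Acot13, overlapped within 1 SD. Acot1 moved from position 14 to 9, Acsm3 from 18 to 10, Acot3 from 23 to 13 and Acss3 from 25 to 20 among the 26 tested members.

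Whether relatives of the same reaction changed alike was examined with 4 ratios of counts within a library, which do not depend on scaling. With 3 mice against 3 the two-sided exact permutation test cannot give a p below 0.10. The log2 ratio of Acsm3 to Acsm1 was -4.20, -3.72 and -3.92 in HFD and -1.48, -1.72 and -1.28 in HFD+Allantoin-H, a difference of 2.46 (exact p = 0.10, adjusted over the 4 ratios 0.13). The log2 ratio of Acot1 to Acot2 was -0.15, 1.27 and 1.16 in HFD and 2.74, 2.18 and 1.50 in HFD+Allantoin-H, a difference of 1.38 (exact p = 0.10, adjusted 0.13) that was 0.93 without HFD replicate 1. In both ratios the groups did not overlap, and the gap between them was wide for Acsm3 to Acsm1 and narrow for Acot1 to Acot2. The log2 ratio of Acss2 to Acss1 differed by 1.82 (exact p = 0.10, adjusted 0.13), but it rests on 1 to 9 counts of Acss1 and ranged from 1.18 without HFD+Allantoin-H replicate 5 to 2.26 without HFD+Allantoin-H replicate 4. The log2 ratio of Acsl5 to Acsl1 was -3.05 ± 0.30 in HFD and -2.84 ± 0.41 in HFD+Allantoin-H (SD, n = 3 each, exact p = 0.60), with overlapping groups.

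**Figure D4:**
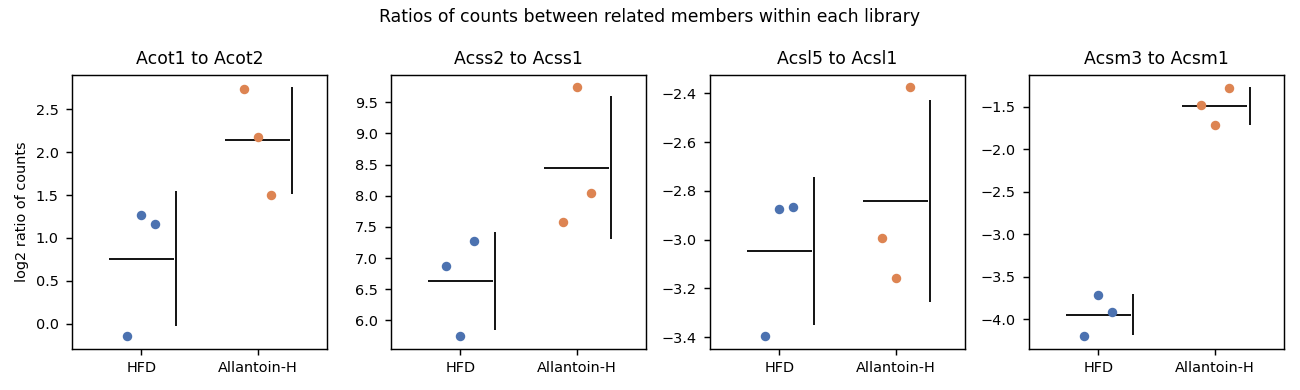
Log2 ratio of counts (y axis, separate scale per panel) of 4 pairs of members in each HFD and HFD+Allantoin-H library (x axis). Points are single mice, horizontal lines the mean and vertical lines 1 SD. The groups are separated in 3 panels and overlap in that of Acsl5 to Acsl1.

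PPARα binds a direct repeat of AGGTCA with 1 base between the repeats (DR1), and promoter windows of RefSeq genes on GRCm38.p6, from 250 bases before to 50 after a start, were searched for it on both strands. Windows were found for 28 of the 33 members. None held both repeats exactly with any base between them, as did 0.0396% of 32817 windows of all genes. With up to 2 mismatches, a match was found in 2 of the 28 genes (36 windows), Acot12 and Acot4, against 3.86% of all windows. Both were called higher, but the windows of Acot1, Acot3, Acot11, Acsm3 and Acss2, also called higher, held no such match. The called members Acss3 and Acot13 had no window. AGGTCA, 1 repeat of the DR1, was also searched for, whether or not it lay within a DR1-like match. It was found in 6 of the 28 genes, Acot3, Acot4, Acot5, Acot12, Acsl6 and Acsm1. Of all windows 16.3% held it, which is a share of windows and not of genes. In Acot12 and Acot4 this AGGTCA is part of the DR1-like match. The 120 bases ahead of the start of both genes are shown with the DR1-like match in capitals, which lies on the minus strand, with 1 mismatch in Acot12 (chr13:91741401-91741520, plus strand) and 2 mismatches in Acot4 (chr12:84038259-84038378, plus strand).
Acot12: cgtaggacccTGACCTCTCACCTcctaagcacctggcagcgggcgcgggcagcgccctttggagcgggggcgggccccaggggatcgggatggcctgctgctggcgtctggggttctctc
Acot4: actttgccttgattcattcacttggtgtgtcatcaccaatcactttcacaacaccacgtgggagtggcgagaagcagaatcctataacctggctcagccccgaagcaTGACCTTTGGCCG
A match is a description of letters in these windows and says nothing of binding, and elements farther away were not searched.

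Other genes that make, move or hold acyl-CoA and CoA were taken from a list of 32 genes, of which 27 were tested, 10 rose and 3 fell (edgeR, adjusted p under 0.05), where 11.3% of all tested genes were called higher and 13.0% lower. Their median log2 fold change was 0.39. Without HFD+Allantoin-H replicate 5 the counts were 5 and 1, without replicate 4 they were 6 and 1, and without replicate 6 they were 7 and 1. With library size in place of TMM they were 14 and 1. Of the 6 genes of CoA synthesis 4 rose. They were the pantothenate kinases Pank1, which went from 128 ± 30.6 to 260 ± 15.1 CPM (SD, n = 3 each, log2 fold change 1.02, adjusted p = 0.00953, edgeR), Pank2 (0.79, adjusted p = 0.0159) and Pank3 (0.63, adjusted p = 0.0237), and Coasy (0.61, adjusted p = 0.0433), the enzyme of the last steps. Of the other CoA synthesis genes, Ppcs had overlapping groups, and Ppcdc was at 32.3, 15.5 and 13.8 CPM in HFD and 10.04, 11.36 and 9.92 CPM in HFD+Allantoin-H, lower without overlap but not past the threshold (log2 fold change -0.97, adjusted p = 0.0525, edgeR). Of the 8 genes for entry into mitochondria or peroxisomes 4 rose. Cpt1a, which commits acyl-CoA to mitochondrial oxidation, went from 279 ± 17.4 to 539 ± 124 CPM (SD, n = 3 each, log2 fold change 0.95, adjusted p = 0.0106, edgeR), and the peroxisomal acyl-CoA transporters Abcd2 and Abcd3 had log2 fold changes of 1.72 and 1.25. Cpt2 and Slc25a20, which follow Cpt1a in the carnitine shuttle, had log2 fold changes of -0.10 and -0.03 with overlapping groups.

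Among very-long-chain synthetases and transporters, Slc27a4 rose (log2 fold change 1.24, adjusted p = 0.00826, edgeR) and Slc27a2 fell from 2295 ± 156 to 1588 ± 89.2 CPM (SD, n = 3 each, log2 fold change -0.53, adjusted p = 0.0481, edgeR). Slc27a3 fell from 25, 47 and 51 counts in HFD to 3 counts in each HFD+Allantoin-H library (adjusted p = 0.00232, edgeR). Dbi, the founding acyl-CoA binding protein, was at 288, 324 and 354 CPM in HFD and 223, 164 and 225 CPM in HFD+Allantoin-H, and fell by 0.66 on the log2 scale (adjusted p = 0.0310, edgeR). Acnat1, a peroxisomal acyltransferase, rose (log2 fold change 0.77, adjusted p = 0.0299, edgeR). The other acyltransferase, thioesterase and hydrolase genes of the list that were tested, Acnat2, Baat, Them4, Nudt7 and Nudt19, had overlapping groups.

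Several Acot genes are known PPARα targets. Of PPARα and 9 known targets, all tested, 4 rose and 1 fell, against 11.3% and 13.0% of all tested genes. Ppara itself was at 39.1, 27.4 and 18.9 CPM in HFD and at 109, 146 and 91.4 CPM in HFD+Allantoin-H. It rose by 2.02 on the log2 scale (SE 0.29, edgeR adjusted p = 0.00389). Cyp4a14 (log2 fold change 2.26, adjusted p = 0.0109), Ehhadh (1.03, adjusted p = 0.0225) and Cpt1a rose. Cyp4a10, Vnn1 and Pdk4 did not pass. Fgf21, a secreted target, fell by 2.82 on the log2 scale (adjusted p = 0.0403, edgeR), with 27.3 CPM in HFD replicate 1 and 4.54 and 2.84 CPM in the other HFD libraries against 0.710 to 2.43 CPM in HFD+Allantoin-H.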

How the data were processed

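Liver RNA of 6 mice was sequenced on an Illumina HiSeq after library preparation with a SMARTER mRNA-Seq kit. The authors deposited raw counts per gene, and the submitters' processing notes name GRCm38 (mm10). The aligner, the counting tool, its treatment of strand and of reads with several matches, and the annotation are not given in the sources used here.

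Groups were taken from the treatment in the labels. Rows without an Ensembl ID (429, holding 0.197% to 0.306% of the counts of a library) were left out, and 54495 of 54532 IDs were found in GENCODE M21, which gave symbols, coordinates and exon lengths. Genes were filtered with filterByExpr and tested with edgeR 4.0.16 (TMM, quasi-likelihood F-test) in R 4.3.3, with Benjamini-Hochberg adjustment over 12795 genes and a threshold of 0.05. P-values measure the spread between these mice. The procedure was tested on simulated data. Alternatives (16) included DESeq2 1.42.0, limma 3.58.1, other scalings and filters, removal of trends with transcript length and GC (natural splines, 5 df) and leaving out each library. Ratios used counts plus 0.5 and a two-sided exact permutation test. Transcripts were compared with BLAST 2.17.0 and MAFFT 7.526, and promoter windows came from RefSeq.

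All members are named, with full statistics for those called or averaging 10 CPM or more, and from the other lists the called genes. A few genes of those lists are counted but not reported here by name. Genes of those lists that did not pass were named after their values were seen. The members and lists were chosen with earlier results of these data known.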

Additional observations from a re-analysis of the deposited data

How the results depend on the processing

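The groups held different mice and the labels give no pairing between them, so that no paired analysis was made. With library size in place of TMM, 16 members were called higher and 0 lower, their median log2 fold change was 0.81 where all tested genes moved from -0.03 to 0.38, 1 of the other acyl-CoA and CoA genes was called lower, and Acbd3, Acsl3 and Acsm1 turned to log2 fold changes of 0.27, 0.29 and 0.27. The count of members called lower was 1 with DESeq2, 1 without the filter on low counts and 1 with the length and GC trend removed, and that of the other acyl-CoA and CoA genes called lower was 5 with DESeq2 and 1 with at least 10 counts in every library. The cause was not tested. Leaving out 1 library at a time gave 5 to 11 members called higher and 0 to 2 called lower, 5 to 11 of the other acyl-CoA and CoA genes called higher and 1 to 3 called lower, and a difference in the log2 ratio of Acsl5 to Acsl1 of -0.030 to 0.36. A fit without a library also rests on fewer samples. Of the members that did not pass, 5 changed sign in such fits. Their log2 fold changes ran from -0.069 to 0.37 for Acot8 and from -0.022 to 0.53 for Acot9 (negative without HFD replicate 1), from -0.12 to 0.66 for Acot6 (negative without HFD+Allantoin-H replicate 6), from -0.14 without HFD replicate 1 and -0.12 without HFD replicate 2 to 1.63 without HFD replicate 3 for Acsl4, and from -0.45 to 0.18 for Acsl3 (0.18 with HFD replicate 3 left out, 0.04 with HFD+Allantoin-H replicate 6 left out). Of 416 values of single members under an alternative, 370 kept direction and side of the threshold, 18 passed it newly, 18 no longer passed and 10 changed sign, none of the last among called members. Acss1, Acsm2 and Acsl6, which the filter on low counts left out, did not pass without it (adjusted p = 0.613, 0.563 and 0.29, edgeR).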
